A study of Saccharomyces cerevisiae with 24 samples.

Results

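Haploid budding yeast has a pair of mating types, a (MATa) and alpha (MATalpha), and the 18 haploid poly(A) RNA-seq libraries analysed here hold both. The groups were chosen by values of the same data: replicate 2 of each of 6 haploid strains has high STE3, the a-factor receptor gene made by alpha cells, and replicates 1 and 3 have low STE3. That gives 6 libraries with the MATalpha pattern and 12 with the MATa pattern, of 24 libraries in the series. The replicate number is in the labels and the mating type is not, so mating type and replicate number cannot be told apart in this contrast.

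The strains are ScNI, the haploid wild type, and 5 others that express different actins: Ca, N2, Sc[At], Sc[Sp] and Sc[Ca]. Each strain therefore gives 1 MATalpha and 2 MATa libraries. Cells were taken in log phase from YPD, a rich medium with dextrose, at 25 °C, and the labels name no pheromone treatment. A further 6 libraries come from the diploids Sc/Sc, the wild type, and N2/Ca. The labels do not say whether replicates are separate clones or cultures, so the p values measure spread between these samples. Depth was 10228523 to 15403081 reads per haploid library.

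Mating type is set by the MAT locus on chromosome III. In alpha cells the alpha1 protein switches on alpha-specific genes, and the alpha2 protein, together with Mcm1, switches off a-specific genes; in a cells the a-specific genes are on by default. Each cell type secretes its own pheromone and carries the receptor for the other, and pheromone binding acts through a shared G protein and kinase cascade on the transcription factor Ste12, which binds pheromone response elements. In a/alpha diploids the a1-alpha2 repressor also silences haploid-specific genes.

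The DNA elements behind these circuits are shown first because the results below are ordered by them. The 500 bases before each start codon in the R64 genome were searched for CATGT, 21 bases of any kind and ACATG, allowing 2 mismatches among those 10 letters, with GG at positions 19 and 20 or CC at the mirrored place. This is the layout of the operator that alpha2 and Mcm1 bind. It occurred before 107 of 6021 protein-coding genes (1.78%), before 5 of 7 a-specific genes and 0 of 5 alpha-specific genes. Capitals mark the outer 5 bases at each end, where the half-sites lie.
STE2 (chrVI:82351-82381, plus strand): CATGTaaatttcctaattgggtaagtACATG
MFA2 (chrXIV:352163-352193, plus strand): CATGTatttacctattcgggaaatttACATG
STE6 (chrXI:46477-46507, minus strand): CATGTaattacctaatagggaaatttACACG
MFA1 (chrIV:1384942-1384972, plus strand): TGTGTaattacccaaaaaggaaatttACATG
ASG7 (chrX:101905-101935, minus strand): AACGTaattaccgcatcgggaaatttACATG
RDT1 (chrIII:30596-30626, plus strand): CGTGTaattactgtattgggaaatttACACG
The first 5 are a-specific genes, and RDT1 is not on that list but was low in every MATalpha library, as described below. BAR1 and AGA2 had no match to these letters in the window. A match is a description of letters and not of binding.

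The second element is the pheromone response element, searched as TGAAACA on both strands of the same windows. It occurred before 722 of 6021 genes (11.99%), before 15 of the 22 pheromone-induced genes tested and before all 6 of those called below. It also stood before 7 of 7 a-specific and 2 of 5 alpha-specific genes. Of the 16 called genes outside the mating lists, 11 had it, which are not only those printed here. The copy nearest the start codon is shown for the genes of the pheromone response that were higher in MATalpha libraries, with the element in capitals (TGTTTCA is the same element on the other strand).
AGA1 (chrXIV:703485-703515, plus strand): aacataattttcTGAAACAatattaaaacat
PRM6 (chrXIII:181213-181243, minus strand): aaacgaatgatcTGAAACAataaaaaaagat
PRM1 (chrXIV:110746-110776, plus strand): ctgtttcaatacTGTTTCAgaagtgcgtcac
FUS2 (chrXIII:736714-736744, plus strand): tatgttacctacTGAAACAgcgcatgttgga
FIG2 (chrIII:267068-267098, plus strand): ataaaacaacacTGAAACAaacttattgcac
KAR4 (chrIII:27817-27847, plus strand): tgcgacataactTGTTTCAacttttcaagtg
SST2 (chrXII:1041593-1041623, minus strand): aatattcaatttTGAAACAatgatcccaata
PRM1 held 3 copies, PRM6, FUS2, FIG2 and KAR4 held 2 each, and AGA1 and SST2 held 1.

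The a-specific, alpha-specific and mating-cassette genes include STE3, which set the split, and others that mark the same mating types. Their values are given as a description with no test. Levels are normalised counts per gene, not corrected for gene length, with mean ± SD over 6 MATalpha and 12 MATa libraries. The cassette gene HMRA1 (chromosome III, 293835 to 294321) encodes a1 and is identical in sequence to the copy at an active MATa locus, so its reads cannot be placed at one or the other. It had 0 reads in all 6 MATalpha libraries and 438 to 688 normalised counts in the 12 MATa libraries (550.0 ± 72.0). Against a floor of 3 reads per library, it was at least 160-fold lower in the MATalpha libraries. The cassette genes of alpha1 and alpha2 were not analysed here.

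The alpha-factor genes gave the widest separation in the other direction. MF(ALPHA)1 stood at 10366, 12647 and 25872 (lowest, median and highest) in the MATalpha libraries and at 0, 5.00 and 11.6 in the MATa libraries. MF(ALPHA)2, the minor alpha-factor gene, had means of 9899 ± 4392 and 92.4 ± 21.2. The groups did not overlap for either gene. STE3 itself, which set the split, ran from 6546 to 9169 against 34.8 to 202. SAG1, the alpha-agglutinin that binds cells together, had means of 25823 ± 9010 and 736 ± 226. AFB1, which encodes a barrier protein against a-factor, had means of 7031 ± 897 and 739 ± 190.

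On the a side, the a-factor genes were MFA1, at 21.8 ± 21.9 in MATalpha and 1078 ± 162 in MATa libraries, and MFA2, at 19.1 ± 8.42 and 2173 ± 311. STE6, the transporter that exports a-factor, was at 461 ± 131 and 3685 ± 880. STE2, the alpha-factor receptor, was at 189 ± 92.2 and 8941 ± 3604. No library of either pattern reached the range of the other for any of these genes. BAR1, the secreted protease that degrades alpha-factor, was at 165 ± 53.7 and 2743 ± 890. AGA2, the binding subunit of a-agglutinin, was at 34.6 ± 32.1 and 866 ± 156. ASG7, which damps pheromone signalling after mating, was at 24.3 ± 8.12 and 247 ± 104. All 12 of the a-specific and alpha-specific genes and HMRA1 thus separated the libraries along the same line, in all 6 strains.

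**Figure D1:**
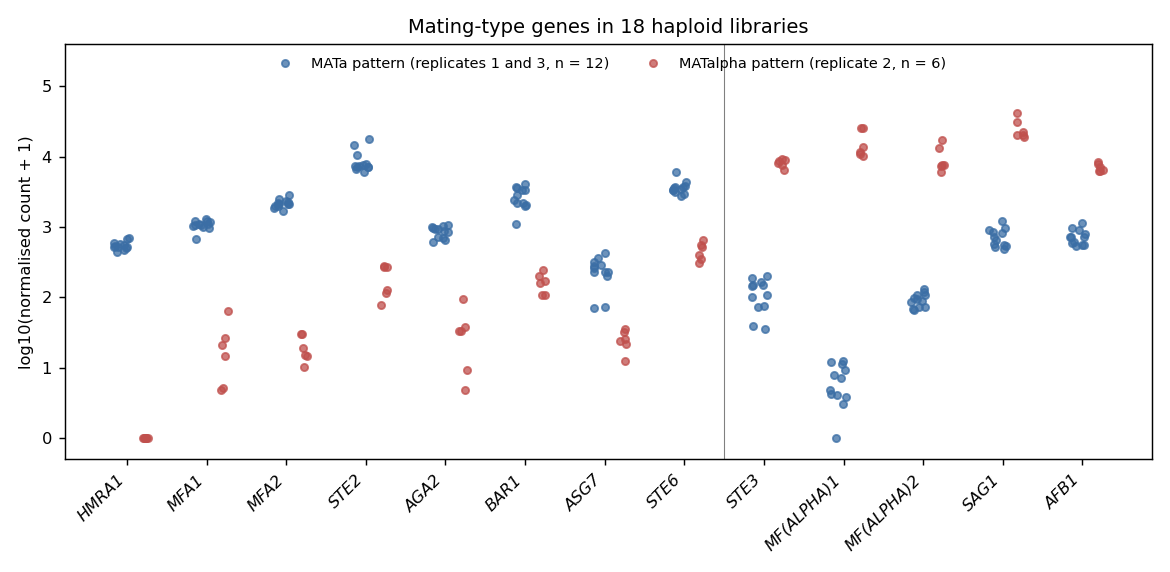
Normalised counts of 13 mating-type genes on a log10(value + 1) axis, 1 point per library: blue points are the 12 MATa libraries (replicates 1 and 3) and red points the 6 MATalpha libraries (replicate 2). HMRA1 and the a-specific genes stand left of the grey line and the alpha-specific genes right of it; the groups overlap for none of the 13 genes.

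The genes of the opposite type were low but not all absent. As a percentage of the strain's own expressing libraries, STE6 in MATalpha libraries kept 6.91% (Ca) to 19.1% (Sc[At]) and ASG7 3.82% to 17.1%. MFA2 kept 0.414% to 1.59%. In MATa libraries AFB1 kept 7.35% to 15.8% and SAG1 2.15% to 4.49%, while MF(ALPHA)1 kept 0% to 0.0801%. The residual levels thus differed from gene to gene within the same library. From the bulk level of 1 gene, fewer cells and less RNA per cell cannot be told apart. HMRA1 had 0 reads in the same MATalpha libraries in which STE6 kept at least 6.91%, and MF(ALPHA)1 kept at most 0.0801% in the MATa libraries in which AFB1 kept at least 7.35%. Whether any of the residual level comes from cells of the other type was not tested. Replicate 2 of Sc[At] had the highest residual level of STE2 (3.67%), MFA1 (6.21%), AGA2 (10.3%), STE6 and BAR1 (6.98%).

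The strength of the STE3 difference varied between strains. The log2 difference of replicate 2 from the mean of replicates 1 and 3 was 5.27 in Ca, 5.45 in Sc[At], 5.86 in Sc[Sp], 6.37 in Sc[Ca], 6.89 in ScNI and 7.74 in N2. The MATa libraries carried most of that spread: STE3 was at 38.9 and 34.8 in N2 and at 189 and 202 in Ca, while the MATalpha level was 8084 in N2 and 7583 in Ca. An F test over 5 interaction terms asked which mating differences vary among strains. Each strain has 1 MATalpha library, so its 6 residual degrees of freedom come from the pairs of MATa libraries and the spread among MATalpha libraries of a strain is not measured. It called 1 of 5808 genes (0.0172%) in limma, and that gene was STE3, which chose the groups and is therefore not read as tested. An unadjusted p under 0.05 was reached by 60 genes, and DESeq2 called 9. MFA1, not called, had strain differences from −7.98 in Sc[Ca] to −3.98 in Sc[At]. Each end rests on 1 MATalpha library with a low value, 3.84 normalised counts in Sc[Ca] and 62.9 in Sc[At].

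Beyond the mating lists, few genes moved. Each of the 5808 yeast genes with a mean of at least 10 normalised counts was fitted on the log2(value + 1) scale with strain as a block, and a gene is called at a Benjamini-Hochberg adjusted p under 0.05 in limma. Positive log2 folds mean higher in MATalpha; this scale understates changes of genes with few reads. In all, 29 genes (0.499%) were called, 13 higher (0.224%) and 16 lower (0.275%) in MATalpha. The 13 mating-list genes are among them. STE3 set the groups and the others mark the same mating types, so these calls are not read as tests. Of the other 5795 genes, 16 were called (0.276%), 8 higher and 8 lower, and 5 of them were beyond 2-fold. All 16 had the same direction in 6 of 6 strains. The call on these same libraries favours such agreement, so it is no separate support. The count of 16 became 10 without ScNI or without Sc[Sp], 7 without replicate 1, 25 without replicate 3 and 29 in DESeq2. With each strain left out in turn, 10 of the 16 stayed called throughout, and FIG2, GYP8, NDJ1, PMP1, RHB1 and SST2 lost the call without at least 1 strain. An unadjusted p under 0.05 was reached by 173 of the 5808 genes. The median log2 fold over all genes was 0.0043 and the median absolute fold 0.048.

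The same fit between replicates 3 and 1, which share the MATa pattern, called 0 of 5808 genes (0%) in limma and in edgeR, and DESeq2 called 2. In it, 174 genes had an unadjusted p under 0.05. The fit holds 12 libraries instead of 18. Chromosomes VI and XIII in N2 and Ca, and a chromosome III segment in some strains, differed between these replicates, as described below. So 0 calls do not show that replicates 1 and 3 are alike. TSL1, a subunit of the trehalose synthase complex, had the largest difference, at a log2 of −0.84 (SE 0.23). It lies on chromosome XIII, which differed between these replicates in N2 and Ca.

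**Figure D2:**
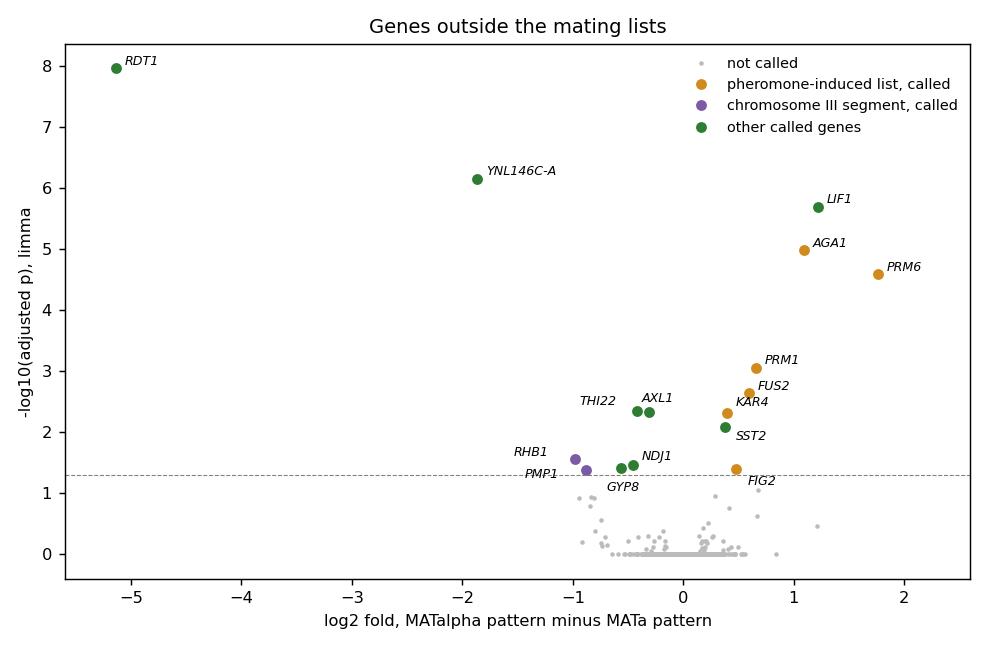
Log2 fold of MATalpha against MATa libraries (horizontal) and −log10 of the limma adjusted p (vertical) for the 5795 tested genes outside the mating lists; the dashed line marks an adjusted p of 0.05. The 16 called genes are named, coloured by pheromone-induced list, chromosome III segment or other; RDT1 lies farthest from 0.

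Of the 8 genes higher in MATalpha, 7 belong to the pheromone response. Those 8 are out of the 5795 genes outside the mating lists. On a list of 22 pheromone-induced genes, 6 were called higher and 0 lower: PRM6, AGA1, PRM1, FUS2, FIG2 and KAR4. The list's median log2 fold was 0.050, close to that of all genes, with 13 of 22 positive. SST2, on a separate list of 15 signalling genes, was the 1 called there, also higher.

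AGA1, the cell-wall anchor to which Aga2 is attached, was expressed at 2311, 3228 and 4333 (lowest, median, highest) in MATalpha libraries and at 1146, 1456 and 2059 in MATa libraries. The groups did not overlap, and the log2 fold was 1.09 (SE 0.10, limma adjusted p = 1.0e-05). Its partner gene on a cells, AGA2, was low in the same MATalpha libraries. PRM6, which encodes a potassium transporter of the plasma membrane, was at 42.28, 64.1 and 110.4 in MATalpha against 9.71, 16.2 and 42.27 in MATa libraries, groups that met without overlapping. Its log2 fold was 1.76 (SE 0.17, limma adjusted p = 2.6e-05).

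The other members act in cell and nuclear fusion. PRM1, which helps the plasma membranes fuse, was at 453 ± 124 in MATalpha and 281 ± 38.2 in MATa libraries (log2 0.66, SE 0.09, limma adjusted p = 0.00088), again with no overlap. FUS2, needed for cell fusion, was at 328 ± 90.2 and 215 ± 50.1 (0.59, SE 0.09, limma adjusted p = 0.0023). FIG2, a mating adhesin of the cell wall, was at 1061 ± 233 and 763 ± 175 (0.48, SE 0.10, limma adjusted p = 0.039). KAR4, a transcription factor for nuclear fusion genes, was at 929 ± 270 and 695 ± 118 (0.39, SE 0.06, limma adjusted p = 0.0049). SST2, the regulator that turns off the pheromone G protein, was at 2279 ± 306 and 1755 ± 217 (0.38, SE 0.06, limma adjusted p = 0.0082). For FUS2, FIG2, KAR4 and SST2 the ranges of the groups overlapped across strains, while within strains replicate 2 lay above both other libraries in 6 of 6 strains for FUS2, KAR4 and SST2 and in 5 for FIG2.

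PRM6 and FUS2 lie on chromosome XIII, which differed between libraries within N2 and Ca. The median gene of that chromosome was higher in replicate 2 than in replicate 1 of N2 by a log2 of 0.42, and higher than in replicate 3 of Ca by 0.93. In the other 4 strains these medians lay between −0.01 and 0.01. With chromosome medians subtracted in each library, PRM6 stayed called and FUS2, at 0.48, did not (limma adjusted p = 0.59). Without the N2 and Ca strains, where no such shift was present, FUS2 was called.

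FUS1 and FIG1, also induced by pheromone, did not pass the test. FUS1, a membrane protein of cell fusion, was at 802 ± 331 in MATalpha and 493.1 ± 147 in MATa libraries, with a positive difference in every strain (log2 0.68, SE 0.15, limma adjusted p = 0.088). It passed with chromosome medians subtracted (limma adjusted p = 0.024), without Ca (0.022), without N2 and Ca (0.0068), without replicate 1 (0.044) and in DESeq2 (adjusted p = 0.0036). FIG1, a membrane protein of the mating response, was at 52.7 ± 21.9 and 27.8 ± 23.4 (1.21, SE 0.33, limma adjusted p = 0.34). PRM2, PRM3, PRM4 and KAR3 lay between −0.09 and 0.03. The lowest of the list were PRM5 (−0.26), PRM10 (−0.18), GIC2 (−0.16) and CHS1 (−0.15), and KAR5 was at 0.24, none of them called. STE12 itself was at 1571 ± 333 and 1349 ± 151 (0.20, SE 0.09, limma adjusted p = 1.0). The other kinase-cascade genes on the signalling list, STE20, STE50, STE11, STE7 and KSS1, lay between −0.17 and 0.04. FUS3, on the haploid-specific list, was at 0.21 (SE 0.10) and was not called.

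**Figure D3:**
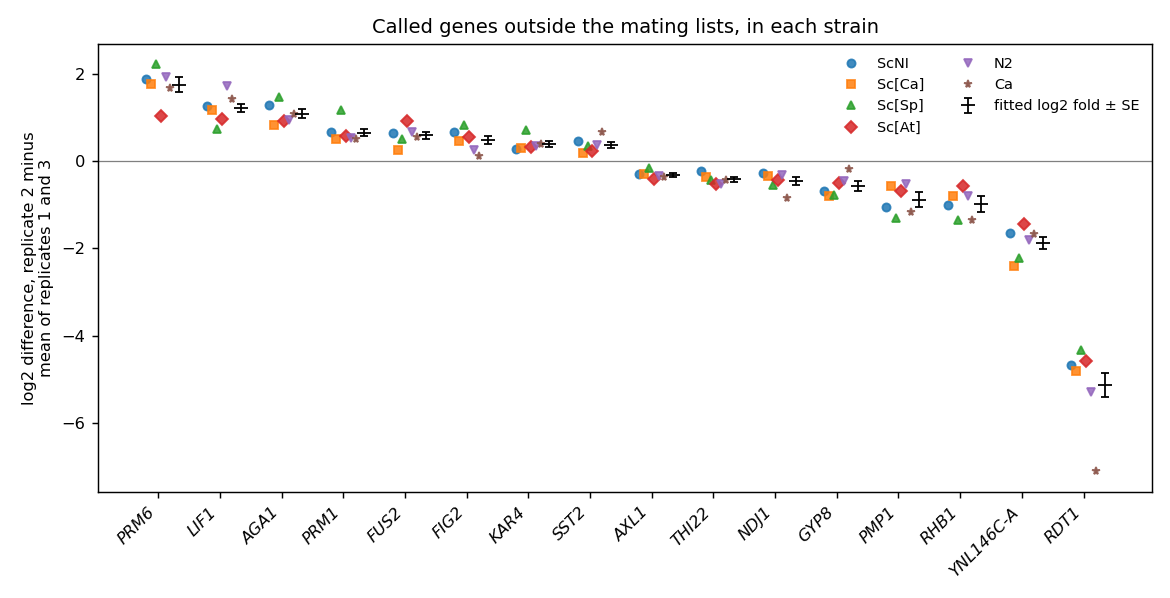
Log2 difference of replicate 2 (MATalpha pattern) from the mean of replicates 1 and 3 (MATa pattern) in each of the 6 strains, for the 16 called genes outside the mating lists; black marks are the fitted log2 fold ± SE. All 6 points of each gene lie on the same side of 0, which the call on the same libraries favours.

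Among genes outside the mating lists that were lower in MATalpha, RDT1 (chromosome III, 30910 to 30996) changed most. It is a small gene 1100 bases from the annotated recombination enhancer (29108 to 29809), the element that directs donor choice in mating-type switching, and the R64 annotation already describes it as expressed in MATa. RDT1 was at 0, 1.98 and 3.43 normalised counts in MATalpha libraries and at 43.6, 85.6 and 152 in MATa libraries. Ca replicate 2 was the library with 0. The groups were far apart, with a log2 fold of −5.13 (SE 0.27, limma adjusted p = 1.1e-08). Its operator-like sequence, printed above, ended 283 bases before the start codon.

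YNL146C-A, an uncharacterised gene on chromosome XIV (351386 to 351580, minus strand), was at 11.5, 16.3 and 18.3 in MATalpha and at 41.5, 60.6 and 75.4 in MATa libraries. The groups did not overlap (log2 −1.87, SE 0.14, limma adjusted p = 6.9e-07). It lies 833 bases before MFA2 and on the other strand, and YNL146W lies between them. YNL146W did not follow: it was at 62.6 ± 16.7 and 49.2 ± 15.3 (0.37, SE 0.17, limma adjusted p = 1.0).

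Among the 5795 genes outside the mating lists, 8 were called lower. AXL1, a protease that matures a-factor and also marks the axial budding site in both haploid types, was the 1 of 12 haploid-specific genes called. It was at 1243 ± 105 in MATalpha and 1540 ± 136 in MATa libraries (log2 −0.31, SE 0.05, limma adjusted p = 0.0047), with overlapping ranges. THI22, its upstream neighbour on chromosome XVI with 1743 bases between them, belongs to a family of thiamine-synthesis paralogues, so its reads may be shared. It was at 270 ± 26.4 and 362 ± 54.7 (−0.42, SE 0.06, limma adjusted p = 0.0044). NDJ1, which attaches telomeres in meiosis, was at 271 ± 66.9 and 367 ± 69.6 (−0.46, SE 0.09, limma adjusted p = 0.034).

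Other haploid-specific genes were not called. GPA1, the G protein alpha subunit, was at 2001 ± 225 and 1740 ± 162 (0.20, SE 0.06, limma adjusted p = 0.75), and STE4, STE18, STE5, NEJ1, RME1 and HO lay between −0.11 and 0.10. FUS3 and FAR1 were at 0.21 (SE 0.10) and 0.18 (SE 0.10), and RDH54 and AMN1 at −0.09 and 0.01.

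Several called genes sit beside a mating gene. Of 21 tested immediate neighbours of the a-specific and alpha-specific genes, 2 were called, LIF1 and GYP8, where 0.276% of genes outside the mating lists were called. The log2 fold had the sign of the mating gene's in 16 of the 21, where 52.5% of all tested genes were positive. COY1, LST4, MRX12 and RIC1 were negative beside alpha-specific genes, and YNL146W was positive beside MFA2. All other tested neighbours of a-specific genes were negative. The median absolute log2 fold of the 21 was 0.12, against 0.048 for all genes. Of the 14 genes that start within 1000 bases of a mating gene, 2 were called, GYP8 and YNL146C-A, and none overlapped it.

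LIF1, the partner of DNA ligase IV in end joining, faces MF(ALPHA)2 on chromosome VII with 206 bases between the gene ends. It was at 664, 1114 and 1386 normalised counts in MATalpha libraries and at 365, 443 and 512.5 in MATa libraries. No MATalpha library fell into the MATa range (log2 1.22, SE 0.10, limma adjusted p = 2.0e-06). The libraries were made with a stranded kit, but how strand was treated in counting is not stated, so reads that run from one gene into the other cannot be told apart from LIF1 reads. HOP2, which faces AGA2 at 168 bases, was at 11.5 ± 6.94 and 18.9 ± 8.04 (−0.73, SE 0.24, limma adjusted p = 0.74). UBA1, which faces STE6 at 185 bases, differed by −0.01 (SE 0.09).

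GYP8, a GTPase activator for Rab proteins, shares with STE2 a spacer of 667 bases on chromosome VI from which both genes are read outward. The operator at 82351 to 82381 is the same stretch for both, 198 bases from STE2 and 438 bases from GYP8. GYP8 was at 593 ± 196 in MATalpha and 866 ± 228 in MATa libraries (−0.57, SE 0.11, limma adjusted p = 0.038). Replicate 2 was below both other libraries in 5 strains; in Ca it lay between them, at 843 against 1274 and 719. Chromosome VI as a whole was higher in replicate 2 than in replicate 1 of N2 by a log2 of 0.42, than in replicate 3 of Ca by 0.80 and than in replicate 3 of Sc[At] by 0.10, and GYP8 stayed called with chromosome medians subtracted.

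**Figure D4:**
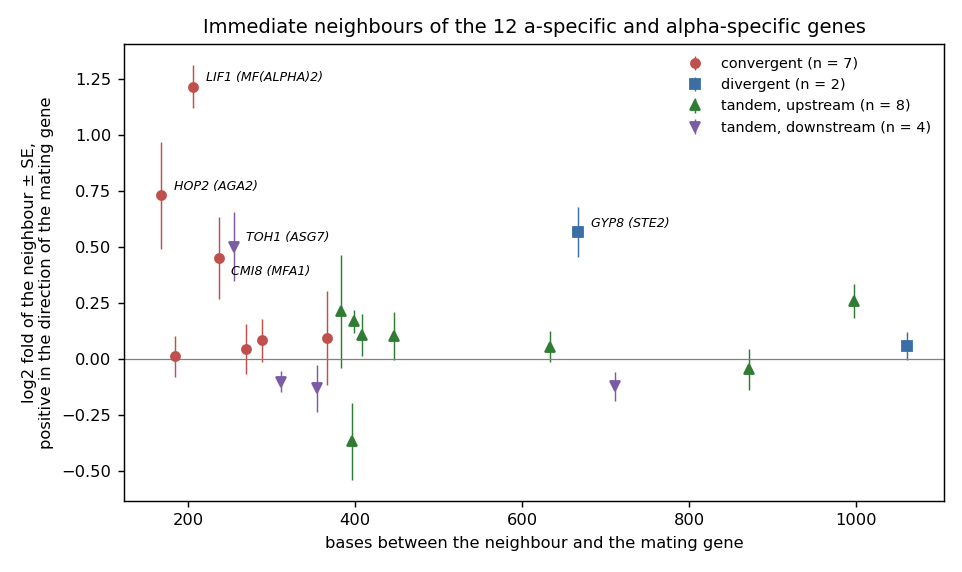
Log2 fold ± SE of the 21 tested immediate neighbours of 12 mating genes, signed so that positive means the direction of the mating gene, against the bases between the genes; symbols give the orientation. LIF1, facing MF(ALPHA)2, is highest at 1.22, and most neighbours lie near 0.

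RHB1, a Rheb-like GTPase, and PMP1, a small regulator of the plasma-membrane proton pump, were also called lower in MATalpha. RHB1 was at 372 ± 34.2 and 768 ± 224 (−0.98, SE 0.19, limma adjusted p = 0.027). PMP1 was at 3722 ± 645 and 7177 ± 2390 (−0.88, SE 0.18, limma adjusted p = 0.042). Both lie on the right arm of chromosome III in a segment of 13 tested genes, MAK32 to RHB1 (152837 to 167999), between a pair of Ty1 long terminal repeats at 151521 to 151851 and 169573 to 169888. The segment was looked at because these genes were called, so its values are a description.

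All 13 genes of the segment had a negative log2 fold, although RHB1 and PMP1 alone passed the test and 11 had an unadjusted p under 0.05. The median was −0.80, from −0.98 to −0.28 (HSP30, SE 0.35), while the 20 genes beside it, 10 on each side, had a median of 0.011. In a scan of 5614 windows of 13 adjacent tested genes, 12 windows had a median beyond 0.5 in size, and all 12 overlapped this segment; windows that did not overlap it lay between −0.15 and 0.17.

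The libraries did not divide by mating pattern in this segment. Relative to replicate 2 of the same strain, the segment median was higher by 0.89 and 0.91 in replicates 1 and 3 of ScNI, by 0.97 and 1.03 in Sc[Sp], and by 0.99 and 1.66 in Ca. In the other 3 strains replicate 1 was higher, by 0.93 in Sc[Ca], 0.94 in Sc[At] and 1.04 in N2. Replicate 3 of those strains was level with replicate 2, at −0.04, −0.07 and 0.05. So 9 of 12 MATa libraries were high and 3 stood with the MATalpha libraries, although all 12 share the MATa pattern of HMRA1, STE2 and STE3. The median of the 20 flanking genes lay between −0.05 and 0.08 in every library, with single flanking genes spread more widely. Whether copy number differs there was not tested.

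Without replicate 3, 11 of the 13 segment genes were called, and without replicate 1 none was; the segment held 2 of the 16 called genes outside the mating lists, which leaves 14. In the diploids, each library's segment median lay between −0.13 and 0.14 around the Sc/Sc mean.

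**Figure D5:**
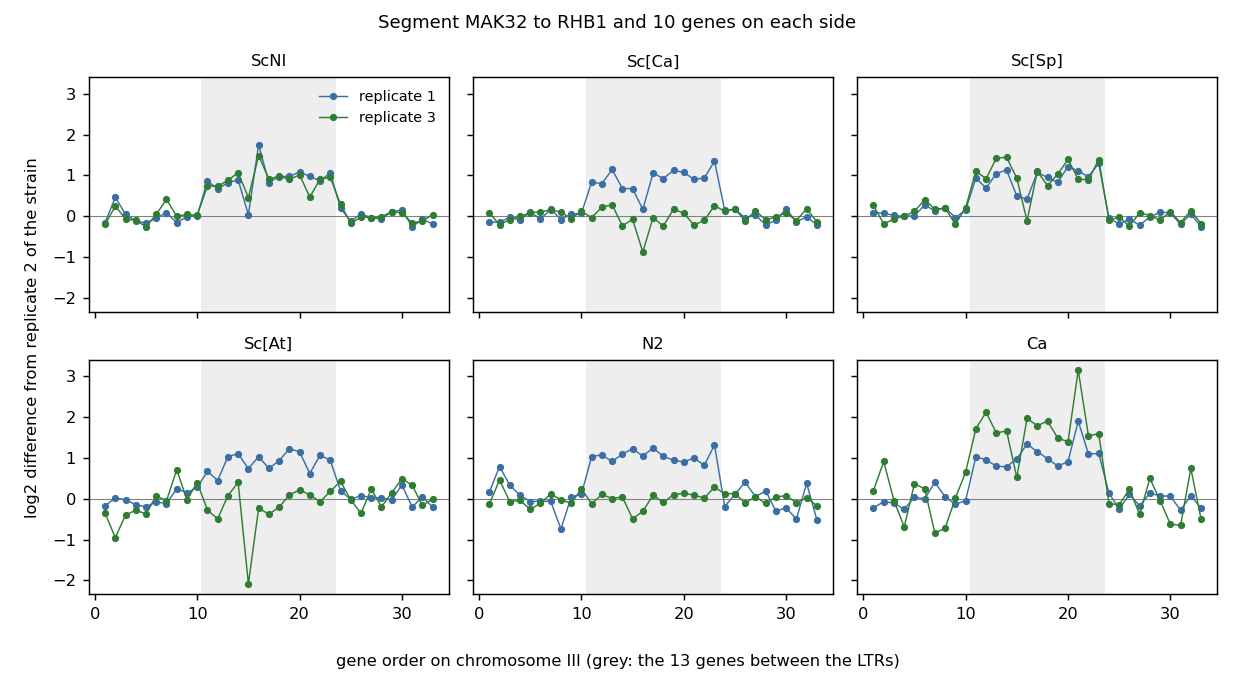
Log2 difference of replicates 1 (blue) and 3 (green) from replicate 2 of the same strain for 33 adjacent genes of chromosome III; grey marks the 13 genes between the long terminal repeats. The median of the grey span is raised by 0.89 to 1.66 in both replicates of ScNI, Sc[Sp] and Ca, with single genes such as HSP30 lower, and in replicate 1 but not replicate 3 of Sc[Ca], Sc[At] and N2.

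Marker genes used in strain construction were compared because crosses and switched markers can travel with mating type. None of the 8 marker genes tested was called, where 0.276% of genes outside the mating lists were called. HIS3, also on the marker list, was not among the genes tested. LYS2 was at 1425 ± 477 in MATalpha and 1077 ± 221 in MATa libraries (log2 0.35, SE 0.16, limma adjusted p = 1.0), with strain differences from −0.52 to 0.82. MET17 was at 2761 ± 1652 and 3205 ± 1517 (−0.26, SE 0.15). LEU2 differed by 0.16 (SE 0.07), and URA3, TRP1, ADE2, CAN1 and LYP1 lay between −0.02 and 0.14.

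Where 0.276% of genes outside the mating lists were called, 24 of the other 28 lists had no called gene. These covered metabolism, stress, chaperones, ribosome biogenesis, actin, histones, silencing, budding pattern and sporulation, with list medians from −0.12 to 0.25. The highest was lysine synthesis, with 9 of 9 genes positive, and the lowest sulfur and methionine genes, with 25 of 28 negative, where 52.5% of all tested genes were positive. Signs were uneven in other lists too. Positive genes numbered 24 of 26 for Msn2/4 stress (median 0.20), 19 of 20 for chaperones and 3 of 20 for meiosis and sporulation. They numbered 1 of 10 for the zinc regulon and 1 of 10 for bud site selection. The 34 actin and cortical patch genes had a median of −0.017, and the 10 bud site selection genes of −0.051.

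The diploid libraries give the level of the same genes in cells with both MAT alleles. That table was normalised separately, so levels are set side by side without a test. STE2 was at 84.4 to 315 and STE3 at 25.1 to 39.3 in the 6 diploid libraries; MFA1, AGA2, MF(ALPHA)1, PRM6 and RDT1 have no diploid value analysed here. HMRA1 was at 155 to 311. Of the called genes, AXL1 was at 324 to 370, SST2 at 228 to 323, AGA1 at 137 to 413, NDJ1 at 18.2 to 58.0 and FUS2 at 39.3 to 103, each below all 18 haploid libraries. KAR4 (309 to 409) and THI22 (141 to 174) were below them too. PRM1 (120 to 231) and FIG2 (301 to 550) reached into the haploid range, and RHB1 (482 to 595) and PMP1 (3374 to 5505) lay within it. The share of all genes that lie below every haploid library is not given here. YNL146C-A, at 9.25 to 26.4, overlapped the MATalpha range and stayed below the lowest MATa value of 41.5. LIF1, at 297 to 421, reached no MATalpha value. GYP8, at 318 to 492, lay within or below the MATalpha range.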

How the data were processed

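The authors deposited signal values, gene counts divided by DESeq2 size factors, in separate tables for the 18 haploid and the 6 diploid libraries. Every value was a whole number of reads (tolerance 0.001 reads) times a factor per library. Per the submitters' processing notes, Trimmomatic 0.39, HISAT2 2.2.1 and DESeq2 1.28.0 were used with genome build R64, and no counting tool or strand setting is named. Rows for 5 introduced actins were left out, leaving 5838 genes, of which 5758 matched the R64 annotation by locus tag, 77 by symbol and 3 not at all. No column was left unused.

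Replicate 2 was compared with replicates 1 and 3 in limma 3.58.1 (mean-variance trend, log2(value + 1), strain as block, mean of at least 10, adjusted p under 0.05), with a contrast of replicates 3 and 1 and an interaction test beside it. edgeR 4.0.16 and DESeq2 1.42.0 ran on the recovered reads as alternatives, in R 4.3.3. The fits were first tested on simulated data. Sequences and positions came from the RefSeq R64 genome. Reads without molecular identifiers are not independent molecules, so the floor of 3 reads covers counting error only.

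Genes are named by rule: every mating-list gene, called genes outside those lists with all 6 strains on one side and a mean of at least 50 (up to 15 each way), up to 4 called genes per list, every marker gene, the 5 smallest interaction p, genes within 1000 bases of a mating gene and the 3 largest differences each way between replicates 3 and 1. FUS1, FIG1, STE12, GPA1, the neighbours, the segment genes and other list members were chosen after their values were seen. The groups, members and lists were chosen with earlier results of these data known.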

Additional observations from a re-analysis of the deposited data

Results flagged for a closer look

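Among the 6 MATalpha libraries, 8 values stood apart from the other 5 by more than Dixon's criterion, with 48 genes screened. Chance meets it in about 1 of 20 groups of replicates, but these 6 libraries are 6 different strains. That rate therefore does not apply, and a value that stands apart can belong to the strain or to the library. Replicate 2 of Sc[At] was high for MFA1 (62.9 normalised counts, next 25.7), AGA2 (93.8, next 36.8) and YPR145C-A (168, next 68.2). Replicate 2 of Sc[Sp] was high for PRM1 (692, next 479), KAR4 (1423, next 945) and MET17 (5986, next 2727). MET17 was as high in replicates 1 and 3 of Sc[Sp] (6234 and 6077). YPR145C-A in replicates 1 and 3 of Sc[At] (104 and 88.9) was also above the MATalpha libraries of the other strains. Replicate 2 of ScNI was high for RHB1 (441, next 365). Replicate 2 of Ca was high for PDC5, a pyruvate decarboxylase gene (2341, next 301). For STE3 the limma adjusted p of the interaction between strain and mating pattern was 0.0215. STE3 chose the groups and each strain has 1 MATalpha library, so that value is a description and not a test.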

How the results depend on the processing

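The count of 29 called genes stayed within 1.5 times under every alternative run: it was 29 in edgeR, 42 in DESeq2, 29 with TMM scaling, other pseudocounts, no filter or chromosome medians subtracted, 27 with a mean of at least 50, 23 to 29 with each strain left out, 26 without the N2 and Ca strains, 20 without the strain block, 20 without replicate 1 and 38 without replicate 3. The 16 calls outside the mating lists moved more. They numbered 29 in DESeq2, 7 without the strain block, 7 without replicate 1 (6 of the 16 kept), 25 without replicate 3 (13 kept), and 10 without ScNI or without Sc[Sp]. RDT1, YNL146C-A, LIF1, AGA1 and PRM6 were called under every alternative in which they were tested, and none of the 16 changed direction. PRM1 lost its call without replicate 1 (limma adjusted p = 0.062). FIG2, GYP8, NDJ1, PMP1, RHB1 and SST2 lost theirs under 5 to 8 of 18 alternatives, with limma adjusted p from 0.0501 to 1.0, and AXL1, FUS2, KAR4 and THI22 under 3. The cause was not tested.

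Replicate 3 against replicate 1 had 0 calls, and 2 in DESeq2. The interaction had 1 call, against 9 in DESeq2, 2 with a pseudocount of 0.5, 5 without the N2 and Ca strains and 0 to 3 with each strain left out. No paired analysis was possible because the replicate number is itself the contrast; the fit pairs libraries by strain, through the strain block. With 1 MATalpha library per strain, differences within a strain have no replicate of their own.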
